A study of Mus musculus with 2 samples.

Results

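Binding of Gata3 was read at the genes of the AP-1 family in TH2 cells expanded *in vitro*. The 10 genes were *Fos*, *Fosb*, *Fosl1*, *Fosl2*, *Jun*, *Junb*, *Jund*, *Batf*, *Batf3* and *Atf3*, out of 21938 protein-coding genes of GENCODE M21. They were chosen by family and not by their signal, although earlier results of these data were known. Each gene was taken with 20 kb either side of its body. The window of *Jund* held 0 reads of either library, inside a stretch of 171.889 kb without a read, so *Jund* was not analysed here and 9 genes were described. A total of 788 protein-coding genes had no read of one or the other library in their window, and background shares were therefore taken over the other 21150 genes.

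The material was 2 mouse libraries of a single condition, replicates 1 and 2, made from splenic TH2 cell subsets that had been expanded *in vitro*, with no further treatment, genotype or age in the labels. Both deposited read sets carry the tag CD4cre, which the labels do not explain. The extraction protocol names ILC2 in place of TH2 cells, and nothing states that the libraries came from separate cultures or animals. The libraries carry different sequencing instruments in their read names, so library and sequencing run cannot be told apart. DNA bound by Gata3 was pulled down with an antibody and processed by ChIPmentation, in which a transposase cuts the DNA and adds the adaptors. Neither input nor IgG was used here, so a peak is a window with more reads than the surrounding sequence of the same library, called with the one-sided exact Poisson test at a Benjamini-Hochberg q of 0.01. Library 1 held 40504814 reads and library 2 held 24959052 reads on chromosomes 1 to 19, X and Y, on average 2.97 and 1.83 reads for each 200-bp window. Peaks of the 2 libraries that overlapped were counted as shared, which gave 23806 shared peaks from 71726 peaks of library 1 and 28204 of library 2. The TH2 genes *Gata3*, *Il4*, *Il5* and *Il13* each had a shared peak in their window, as did 56.8% of all protein-coding genes. *Il4* and *Il13* had the same tallest summit, with 220 and 138 reads, and the tallest peaks of *Gata3* and *Il5* were lower.

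AP-1 is a family of basic leucine zipper (bZIP) transcription factors that bind DNA as dimers. Fos proteins pair with Jun proteins, Jun proteins also pair with each other, and the Batf proteins pair with Jun proteins and cooperate with the interferon regulatory factors Irf4 and Irf8 in lymphocytes. Several of the genes are immediate early genes, switched on within minutes of antigen receptor signalling through MAP kinases, and AP-1 cooperates with NFAT at cytokine genes in T cells. Gata3 is the zinc finger factor that directs TH2 differentiation, and it binds the GATA motif.

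Gata3 peaks lay close to most AP-1 genes. Most lay away from the gene start, as shared peaks did over the genome. A shared peak was found in the window of 8 of the 9 genes, beside 56.8% of all protein-coding genes and 50.8% of the 15976 genes whose windows were no longer than the longest AP-1 window. *Atf3* had 6 shared peaks, *Batf*, *Jun* and *Fosl2* had 4 each, *Batf3* had 3, *Fos* and *Fosl1* had 2 each and *Fosb* had 1. *Junb* had 0. The median was 3 per gene, against a median of 1 over all genes, and no test was run on this difference.

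**Figure D1:**
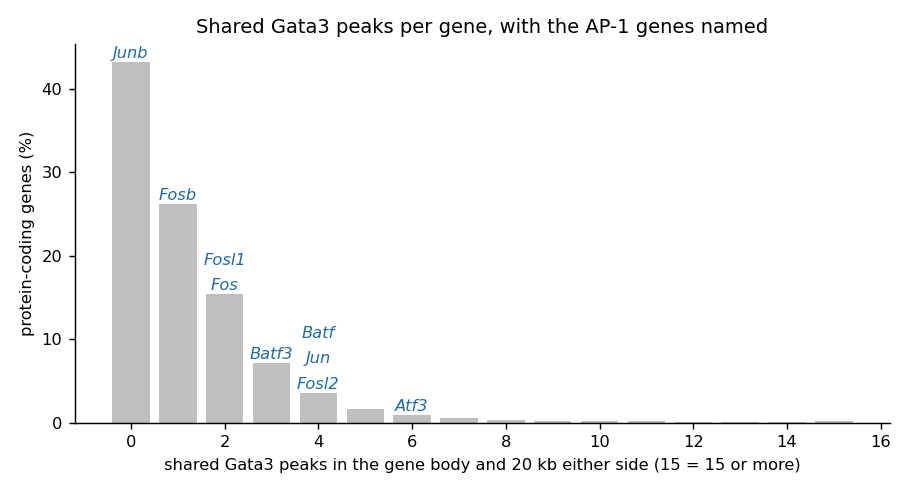
Grey bars give the percent of 21150 protein-coding genes (y axis) with each number of shared Gata3 peaks in the gene body and 20 kb either side (x axis, the last bar pools 15 or more). AP-1 gene names stand above the bar of their own number: *Junb* at 0 and *Atf3* at 6 are the extremes.

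The 26 shared peaks lay in 489.868 kb of sequence, or 5.31 per 100 kb, while the genome held 0.873 per 100 kb. A gene window is richer in peaks than the genome at large, so the closer comparison is by gene. In all, 2.76% of genes had 6 or more shared peaks, as *Atf3* did, and this fell to 0.338% among the genes with windows no longer than that of *Atf3*. For 4 or more, as at *Batf*, *Jun* and *Fosl2*, the shares were 8.06% and 2.90%. For 2 or more, as at *Fos* and *Fosl1*, they were 30.6% and 23.2%, which is not a rare number. These shares hold for the reported setting, and the counts per gene moved with it: *Atf3* had 1 to 6 shared peaks over the alternatives, and *Fosl2* had 1 at a q of 1e-10, at 5-fold and with 100-bp windows.

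By position, 11 of the 26 summits lay upstream of the gene, 7 in its body and 8 downstream. A promoter peak, within 2 kb of the gene start, was present at *Fos*, *Jun* and *Batf*, which is 3 of 9 genes beside 12.2% of all genes. With every start of a protein-coding transcript counted, *Atf3* was added, which made 4 of 9 beside 14.8%. A peak inside the gene body was present at *Batf*, *Batf3* and *Atf3*, 3 of 9 genes, close to the 30.5% of all genes. The summits were mostly distal: 23 were over 2 kb from the start of their AP-1 gene and 19 were over 10 kb away. No share over all shared summits was taken for the distance of 10 kb. Of all shared summits, 90.0% lay over 2 kb from any protein-coding gene start. By the same measure 5 of the 26 lay within that distance, so the AP-1 summits were not more distal than the rest. For 6 summits the nearest gene start was that of another gene. At *Fosl1* there were 2 of these, at *Batf* 1 and in *Atf3* 3, for which the other gene was *Fam71a*, 15633 to 25283 bp away. A second transcript start of *Atf3* itself lay nearer to these 3, at 160 to 6760 bp. The assignment of a peak to an AP-1 gene rests on position alone.

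**Figure D2:**
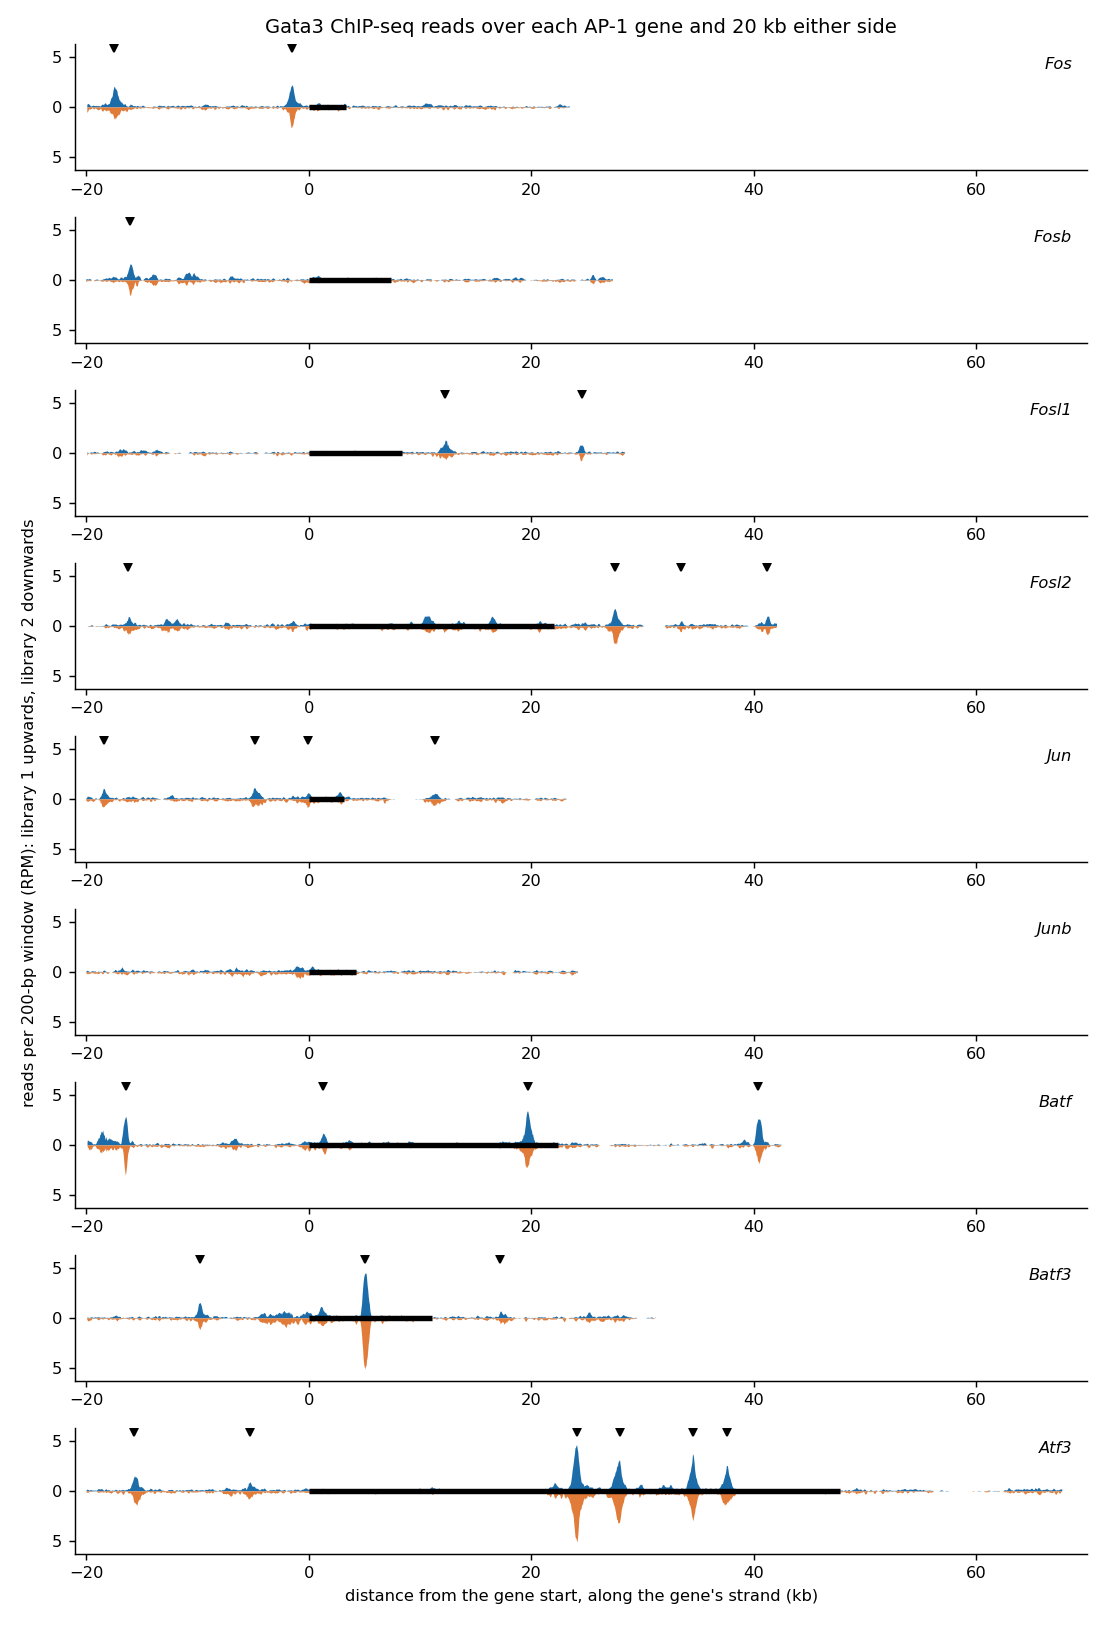
Reads per 200-bp window (RPM) along each AP-1 gene and 20 kb either side, with library 1 drawn upwards and library 2 downwards, against distance from the gene start in kb. Black bars are gene bodies and triangles are shared peaks. The tallest peaks stand in the bodies of *Batf3* and *Atf3*, and *Junb* has no triangle.

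Peak height was taken as the reads in the summit window per 1000000 reads of the library (RPM), each with a 95% exact interval that covers counting error only, and a shared peak was ranked by the lower of its 2 values. Over all shared peaks the median was 0.988 RPM in library 1 and 0.881 RPM in library 2. The tallest AP-1 peaks were those of *Atf3* and *Batf3*, then *Batf*, *Fos*, *Fosl2*, *Fosb*, *Jun* and *Fosl1*. The ranges of the 2 libraries overlapped between *Atf3* and *Batf3* and between *Jun* and *Fosl1*, so that these neighbours could not be placed in order. The ranges of the other neighbours did not overlap, but their 95% counting intervals did, apart from those of *Batf3* and *Batf*. The order from *Batf* down is therefore not settled between neighbours. A peak as tall as that of *Atf3* was found at 0.496% of all genes, one as tall as that of *Batf3* at 0.567%, and one as tall as those of *Jun* and *Fosl1* at 38.3%.

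**Figure D3:**
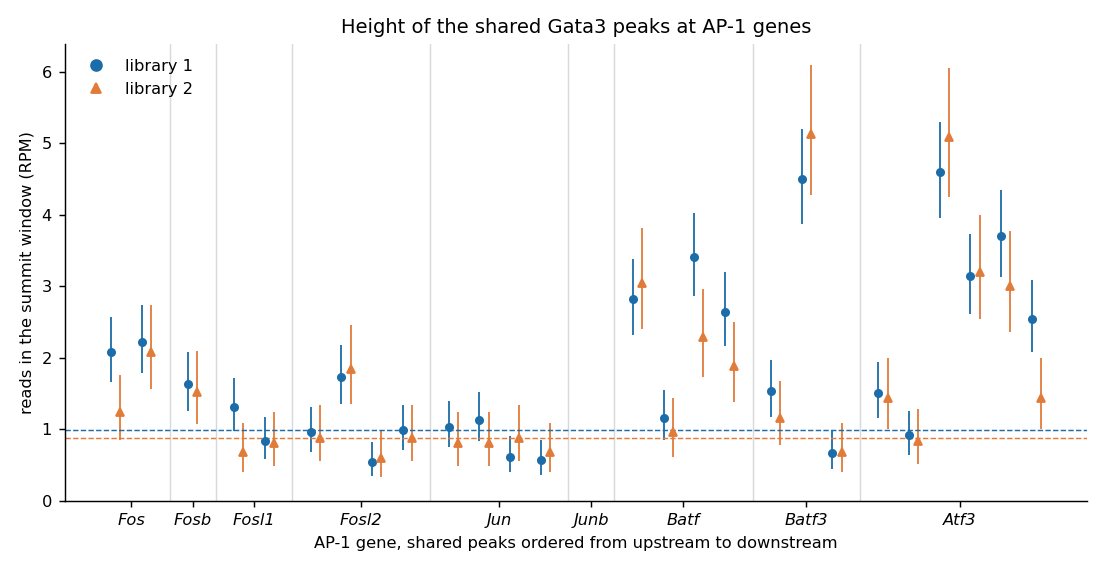
Height of the 26 shared Gata3 peaks in RPM (y axis) in library 1 (circles) and library 2 (triangles), grouped by AP-1 gene and ordered from upstream to downstream, with 95% exact intervals for counting error. Dashed lines are the medians over all shared peaks, 0.988 and 0.881 RPM. Peaks of *Batf3* and *Atf3* exceed 4 RPM in both libraries, and *Junb* has none.

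Among the Fos genes, all 4 had a shared peak, 9 peaks in total. None of these lay inside a gene body, where 30.5% of all genes had a shared peak. Library 1 alone had peaks inside *Fosl2*, in intron 1 (44 reads, 18 in library 2) and intron 3 (39 reads, 16 in library 2). It also had one in intron 1 of *Fosb* (19 reads, 7 in library 2). *Fos* (chr12:85473890-85477273, + strand), an immediate early gene, had its taller peak 1490 bp upstream of the start. This promoter peak held 90 reads in library 1 and 52 in library 2, or 2.22 RPM (1.79 to 2.73) and 2.08 RPM (1.56 to 2.73). It stood 5.71-fold and 6.53-fold over the local read density, with p-values of 7.02e-38 and 3.58e-25 in the exact Poisson test. The intervals of the libraries overlapped, and the peak was higher than 91.1% of all shared peaks. A second *Fos* peak, 17490 bp upstream, held 84 and 31 reads, or 2.07 and 1.24 RPM. Here library 2 was lower, at 0.599 times library 1 (95% interval 0.383 to 0.914).

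*Fosb* (chr7:19302696-19310051, − strand), whose product resembles Fos, had 1 shared peak, 16049 bp upstream, with 66 and 38 reads (1.63 and 1.52 RPM). It lies in the window that also holds *Rtn2*, and its nearest protein-coding start is that of *Fosb*. *Fosl2* (chr5:32135801-32157842, + strand), which encodes Fra-2, had 4 shared peaks, 1 upstream and 3 downstream of the gene. The tallest lay 5458 bp beyond the gene end, with 70 and 46 reads (1.73 and 1.84 RPM), above 86.6% of shared peaks. The other *Fosl2* peaks held 22 to 40 reads in library 1 and 15 to 22 in library 2. *Fosl1* (chr19:5447547-5455946, + strand), which encodes Fra-1, had 2 shared peaks, both downstream. Its peak 3854 bp beyond the gene end held 53 and 17 reads and lay 815 bp from the start of *Fibp*, and its peak 16154 bp beyond the end held 34 and 20 reads and lay 1854 bp from the start of *Efemp2*. Both are thus promoter peaks of a neighbouring gene.

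The sequences under the tallest peaks of *Fos*, *Fosb* and *Fosl2* are shown on GRCm38 because each carries a GATA motif within 100 bp of its summit. Each stretch is centred on the motif nearest to the summit and need not hold the summit itself, and this holds also for the other genes, except where a summit has no motif or where both motifs are spanned. Capitals mark the GATA motif, which is GATA with A or T before it and A or G after it, read on either strand.
Fos, motif of the peak 1490 bp upstream (chr12:85472304-85472364, + strand): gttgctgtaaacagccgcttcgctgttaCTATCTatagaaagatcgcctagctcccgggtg
Fosb, motif of the peak 16049 bp upstream (chr7:19326119-19326179, + strand): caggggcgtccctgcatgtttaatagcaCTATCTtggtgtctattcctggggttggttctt
Fosl2, motif of the peak 5458 bp downstream (chr5:32163268-32163328, + strand): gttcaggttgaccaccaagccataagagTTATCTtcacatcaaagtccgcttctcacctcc

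Of the Jun genes, *Jun* had shared peaks and *Junb* had none at the reported setting, while their reads around the start were of similar number. *Jun* (chr4:95049034-95052222, − strand), the central dimer partner of the family, had 4 shared peaks, all of modest height. By the lower value, the peaks 4828 bp and 18378 bp upstream were equally tall, above 48.6% of shared peaks. The first held 46 and 20 reads (1.14 and 0.801 RPM) and was the tallest in library 1. In library 2 the peak at the start was higher than both. This peak at the start had its summit 28 bp upstream and held 25 and 22 reads, or 0.617 RPM (0.399 to 0.911) and 0.881 RPM (0.552 to 1.33). At 2.52-fold over the local density in library 1 it was the weakest of the 26 by that measure, and it was lost with 100-bp windows, with 400-bp windows and when library 1 was thinned to as many reads as library 2. The peak 18378 bp upstream held 42 and 20 reads, and the one 8134 bp beyond the gene end held 23 and 17 reads.

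*Junb* (chr8:84974484-84978718, − strand), which encodes a Jun protein that partners Batf in T cells, had no shared peak. Library 1 had peaks 6532 bp and 16782 bp upstream, with 21 reads each, where library 2 held 4 and 6 reads. Reads were nevertheless frequent over the start of the gene: within 2 kb of it they were 3.95 and 3.66 times the mean of the library, above 93.4% and 94.1% of genes. The highest window was not the same in the libraries. In library 1 it lay at +318 bp from the start and held 25 reads, 2.27-fold over the local density (p = 0.000199, exact Poisson test, above the limit of 9.63e-05). In library 2 it lay at -782 bp and held 17 reads, 2.81-fold over the local density (p = 0.000189, exact Poisson test, above the limit of 3.91e-05). With 400-bp windows a shared peak was called within 2 kb of the start. An absent peak at *Junb* therefore depends on the window, and does not show an absence of binding.

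The sequence 250 bp upstream of the RefSeq start of *Jun* (GRCm38.p6) is shown since the promoter peak lies over it. Capitals mark an AGATAA 8 bp from the start and a TGACATCA 45 bp from it. The latter is a variant of the cyclic AMP response element, TGACGTCA.
Jun promoter (chr4:95052223-95052472, − strand): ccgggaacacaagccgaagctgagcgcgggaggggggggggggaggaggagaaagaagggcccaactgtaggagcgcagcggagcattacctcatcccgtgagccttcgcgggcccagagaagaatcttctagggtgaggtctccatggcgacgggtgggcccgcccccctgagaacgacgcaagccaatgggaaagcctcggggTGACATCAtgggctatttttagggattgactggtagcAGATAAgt
The tallest *Jun* peak and the peak beyond the gene end are shown for their GATA motifs, which stand in capitals, and in the second sequence also for the AP-1 motif TGAGTCA.
Jun, motif of the peak 4828 bp upstream (chr4:95057023-95057083, + strand): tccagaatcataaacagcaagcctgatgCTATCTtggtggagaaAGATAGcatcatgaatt
Jun, motifs of the peak 8134 bp downstream (chr4:95040904-95040957, + strand): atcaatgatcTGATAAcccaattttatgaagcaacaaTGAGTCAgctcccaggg

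Over 32851 RefSeq promoters, 26.5% held a GATA motif in the 250 bp upstream, 2.93% held TGACATCA, 1.55% held TGACGTCA and 4.46% held the AP-1 motif (TGAGTCA or TGACTCA). Promoters of 8 of the 9 genes were in that set, *Fosl1* being the other. A GATA motif was in 3 of them, *Atf3*, *Jun* and *Batf*, TGACATCA in *Jun*, and TGACGTCA and the AP-1 motif in 0. The absence of letters in this stretch says nothing about the factor.

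The Batf genes, which encode small bZIP proteins without the transactivation domain of Fos, had tall peaks. *Batf* (chr12:85686669-85709087, + strand), required for several T helper lineages, had 4 shared peaks: 1 upstream, 1 in each of its introns and 1 downstream. The upstream peak, 16419 bp from the start, held 114 and 76 reads, or 2.81 RPM (2.32 to 3.38) and 3.04 RPM (2.40 to 3.81), above 95.8% of shared peaks. In intron 2 the peak held 138 and 57 reads (3.41 and 2.28 RPM). It was lower in library 2, at 0.670 times library 1 (0.483 to 0.919), although still above 92.7% of shared peaks. The intron 1 peak, 1281 bp after the start, was the promoter peak of the gene and was smaller, with 47 and 24 reads (1.16 and 0.962 RPM), and with 400-bp windows it was no longer counted at the promoter. The downstream peak held 107 and 47 reads, and the nearest start to it is that of *Flvcr2*, 19489 bp away.

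*Batf3* (chr1:191097847-191108945, + strand), best known for the development of cross-presenting dendritic cells, had 1 very tall peak. It lay in intron 2, 5053 bp after the start, with 182 and 128 reads, or 4.49 RPM (3.86 to 5.20) and 5.13 RPM (4.28 to 6.10). It was 7.04-fold and 6.74-fold over the local density and stood above 99.6% of all shared peaks. The 2 intervals overlapped, and the values of both libraries were above those of every peak of the Fos and Jun genes. The flanking peaks were lower, with 62 and 29 reads 9797 bp upstream and 27 and 17 reads 6105 bp beyond the gene end.

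The start of *Batf3* had no shared peak but many reads. Within 2 kb they were 5.87 and 6.25 times the library mean, above 97.6% and 98.4% of genes. Library 1 had a peak there, 1103 bp after the start, with 47 reads (2.12-fold, p = 3.08e-06, exact Poisson test), where library 2 held 19 reads and was 1.18-fold over its surroundings. The 10-kb mean to which these windows were compared takes in the tall intron 2 peak.

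**Figure D4:**
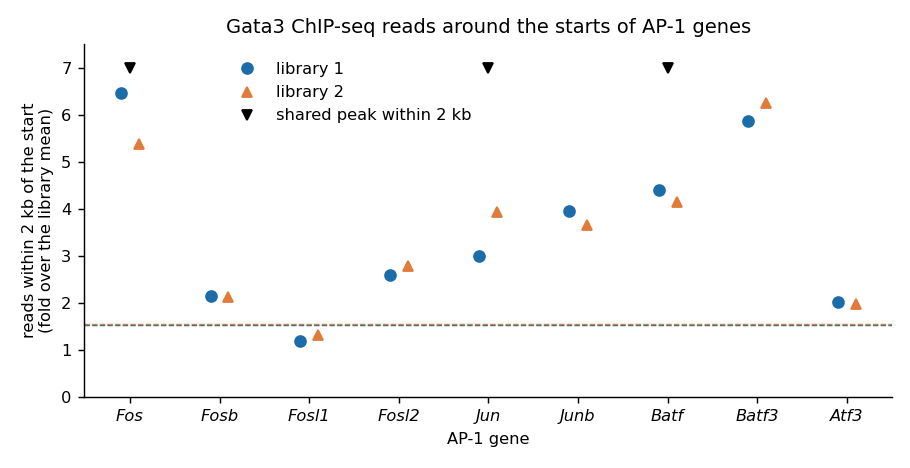
Reads within 2 kb of each AP-1 gene start as a multiple of the library mean (y axis), in library 1 (circles) and library 2 (triangles). Dashed lines are the medians over all genes, 1.53 and 1.56, and black triangles mark genes with a shared promoter peak. *Fos* and *Batf3* are highest, and *Fosl1* lies below the median in both libraries.

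Promoter reads were above the median of all genes in both libraries at 8 of the 9 genes, whether or not a peak was called. *Fos* had 6.46 and 5.38 times the mean and *Batf* 4.39 and 4.15 times, while *Fosl1*, the exception, had 1.19 and 1.31 times. The RefSeq promoters were also rich in GC: in the 250 bp upstream, 7 of 8 AP-1 promoters were above the median of all promoters in GC content (52.4%) and in the ratio of observed to expected CpG (0.373). The share of all promoters above both medians was not taken. Promoter reads were counted around the GENCODE start. For *Atf3*, *Fosl2* and *Batf3* the RefSeq start is a different place, inside the gene, and it is the most distant at *Atf3*. At the other genes of the set it was closer to the GENCODE start. The part of base composition in these read numbers was not tested.

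*Batf* and *Batf3* sequences are shown for the tallest peak of each gene and for intron 2 of *Batf*, where GATA and AP-1 motifs (TGAGTCA) lay under the same summit. Capitals mark both motifs.
Batf, motif of the peak 16419 bp upstream (chr12:85670202-85670262, + strand): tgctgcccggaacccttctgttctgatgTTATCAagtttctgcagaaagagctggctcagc
Batf, motifs of the peak in intron 2 (chr12:85706240-85706399, + strand): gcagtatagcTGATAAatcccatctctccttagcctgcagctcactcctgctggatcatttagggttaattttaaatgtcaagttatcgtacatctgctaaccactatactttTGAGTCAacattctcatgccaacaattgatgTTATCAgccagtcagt
Batf3, motif of the peak in intron 2 (chr1:191102838-191102898, + strand): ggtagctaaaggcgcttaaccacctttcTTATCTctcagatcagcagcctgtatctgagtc

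*Atf3* (chr1:191170296-191218039, − strand), a stress-induced gene whose product pairs with Jun proteins, had 6 shared peaks in a window of 87744 bp, while the 4 peaks of *Jun* lay in 43189 bp. Its count was 3 when summits had to lie within 100 bp of each other, against 4 at *Batf*, and 1 at 5-fold over the local density, against 2 each at *Batf* and *Batf3*. All 4 of its peaks inside the gene lay in intron 1, from 24089 to 37589 bp after the annotated start, and 2 more lay upstream. The tallest held 186 and 127 reads, or 4.59 RPM (3.96 to 5.30) and 5.09 RPM (4.24 to 6.05), above 99.7% of shared peaks. That rank is by height, from which the local density is not subtracted. Over the local density this peak was 5.25-fold and 4.88-fold, near the medians of all shared peaks, 4.85-fold and 4.59-fold. Next along the gene, the peak 27939 bp after the start held 127 and 80 reads (3.14 and 3.21 RPM). At 4.18-fold and 3.74-fold it was below both of those medians. The one 34539 bp after it held 150 and 75 reads (3.70 and 3.0 RPM), above 96.6% of shared peaks. The last, at 37589 bp, held 103 and 36 reads and was lower in library 2, at 0.567 times library 1 (0.377 to 0.836).

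The third of these peaks stands at a start site. A second protein-coding transcript of *Atf3* begins 160 bp from its summit, and RefSeq places the start of the gene close by. Around the first start of the gene, by contrast, reads were only 2.02 and 1.97 times the library mean, and no peak was called. The upstream peaks were lower than those inside the gene in library 1, with 61 and 36 reads at 15661 bp, above 80.9% of shared peaks, and 37 and 21 reads at 5261 bp, above 52.7%.

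*Atf3* sequences are shown for the tallest summit, in which neither the GATA motif nor TGAGTCA or TGACTCA was found within 100 bp, although the looser TGANTCA occurs in it, and for the summit at the second start, which has a pair of GATA motifs in capitals.
Atf3, summit 24089 bp after the start (chr1:191193920-191193980, + strand): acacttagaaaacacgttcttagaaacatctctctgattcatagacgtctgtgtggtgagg
Atf3, motifs of the peak at the second start (chr1:191183487-191183547, + strand): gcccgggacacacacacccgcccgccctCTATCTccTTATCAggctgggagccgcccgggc

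The *Batf3* and *Atf3* genes are neighbours, with 61.351 kb between them, and *Fos* and *Batf* lie 209.396 kb apart on chromosome 12. Their windows do not overlap, so each of the 26 peaks was counted for 1 gene.

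A GATA motif was found within 100 bp of 21 of the 26 summits, beside 71.0% of all shared summits and 33.4% of windows 1 kb to either side. Of the 26, 8 held more than 1, and the share of all shared summits that did so was not taken. For AGATAA alone the order turned, with 9 summits, or 34.6%, beside 40.8% of all shared summits. The AP-1 motif was found at 5 summits, beside 12.3% of all shared summits and 3.55% of the flanking windows. These 5 were peaks of *Fosl2*, *Jun*, *Batf*, *Batf3* and *Atf3*. Both motifs were present at 3 summits, of *Fosl2*, *Jun* and *Batf*, beside 8.22% of all shared summits. Neither was present at 3, and the share of all shared summits with neither was not taken. The cyclic AMP response element TGACGTCA was at 0, beside 0.286% of all shared summits, so its absence here is not a rare result. With 26 summits these counts are a description. The third sequence with both motifs is shown beside those of *Jun* and *Batf*.
Fosl2, motifs of the peak 19158 bp downstream (chr5:32176906-32177081, + strand): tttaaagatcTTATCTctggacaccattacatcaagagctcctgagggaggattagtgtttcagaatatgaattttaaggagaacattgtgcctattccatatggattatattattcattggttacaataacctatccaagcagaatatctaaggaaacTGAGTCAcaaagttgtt

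The libraries gave similar heights at most AP-1 peaks. The ratio of library 2 to library 1 had a median of 0.928 and ranged from 0.521 to 1.43, and the peak was lower in library 2 in 17 of 26, or 65.4%, beside 58.0% of all shared peaks. On the log2 scale its SD was 0.35, beside 0.44 over all shared peaks. For 4 peaks the 95% counting interval of the ratio did not include 1 (15.4%, beside 8.89% of all shared peaks). All 4 were lower in library 2, and an interval below 1 was found at 5.47% of all shared peaks. The 4 were *Fos* 17490 bp upstream, *Fosl1* 3854 bp beyond its end, *Batf* intron 2 and *Atf3* 37589 bp after the start. Summits of the 2 libraries lay within 50 bp of each other in 13 of 26 and at most 350 bp apart. The share of all shared peaks within 50 bp was not taken. When summits had to lie within 100 bp, 20 of the 26 remained, beside 18801 of all 23806 shared peaks. A further 17 peaks were called in library 1 and not in library 2, among them 5 at *Fosl2* and 3 at *Fosb*, and 0 in library 2 alone. These were 39.5% of the 43 library 1 peaks at AP-1 genes, beside 66.8% of all library 1 peaks. The greater depth of library 1 moves with this difference, as does the sequencing run, and their parts cannot be told apart. Thinned to as many reads as library 2, it still gave 8 genes and 24 shared peaks. Over the whole genome the thinned library held 47264 peaks, which is still more than the 28204 of library 2.

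**Figure D5:**
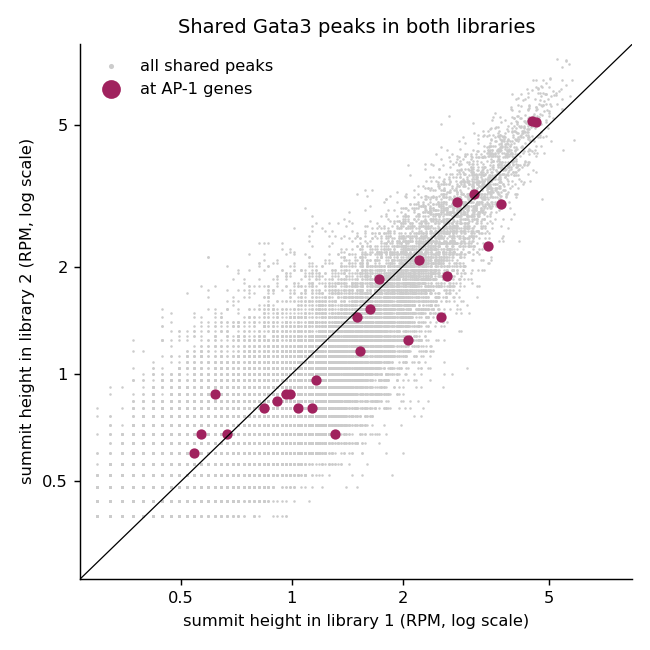
Summit height of the shared Gata3 peaks in library 1 (x axis, RPM, log scale) against library 2 (y axis, RPM, log scale), with all 23806 shared peaks in grey, the 26 peaks at AP-1 genes in purple and the line of equal height. The AP-1 peaks run from 0.543 RPM to over 4 RPM in library 1, and 17 of them lie below the line.

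Related genes were read in the same way, beside the 56.8% of all genes with a shared peak in the window and the 12.2% with a promoter peak. Several of their windows were longer than any AP-1 window. Among 16 other bZIP genes, 10 had a shared peak in their window, close to the share over all genes, and 4 a promoter peak. The tallest were at *Bach2*, a repressor that competes with AP-1 for its sites, with 138 and 81 reads and 24 shared peaks in a window of 387305 bp, and at *Nfil3*, with 148 and 80 reads. All 5 partner factors had a shared peak, *Irf4* with 145 and 83 reads and *Irf8* with 105 and 66 reads being tallest. Of the 13 genes of the MAP kinase pathway, which induces and phosphorylates AP-1, 12 had a shared peak and 5 a promoter peak. The tallest were at *Map2k4* (180 and 112 reads, in a window of 140055 bp) and *Map2k6* (124 and 103 reads, in 166401 bp).

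The Dusp phosphatases, which switch MAP kinases off, had a shared peak at 5 of 6 genes, again beside 56.8% of all genes, with *Dusp10* (148 and 120 reads) and *Dusp6* (104 and 62 reads) tallest. Srf and the ternary complex factors, which drive *Fos* transcription, had one at 3 of 4 genes, *Elk4* (144 and 104 reads) and *Elk1* (82 and 45 reads) leading. Per 100 kb of window there were 5.31 shared peaks at AP-1 genes, against 3.29 at the other bZIP genes, 3.32 at the partner factors, 2.93 in the MAP kinase pathway, 3.58 at the phosphatases and 2.92 at Srf and its cofactors. The TH2 genes had 7.40, with the tallest peak counted for both *Il4* and *Il13*. No test was run between these lists.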

How the data were processed

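Gata3 ChIP-seq was analysed in 2 libraries of 1 group. Per the submitters' processing notes, the authors used Bowtie2 2.3.5.1 and MACS2 2.1.2 on GRCm38. The authors deposited aligned reads with a mapping quality score, which is not a measure of binding, and with no peak list. Duplicates had been removed, as 0 reads of a library shared their 5′ end and strand. Reads on chromosomes 1 to 19, X and Y were moved 100 bp in the 3′ direction and counted in 200-bp windows at 50-bp steps. The one-sided exact Poisson test compared a window with the largest of 3 means, that of the library, of 5 kb and of 10 kb around it, at a Benjamini-Hochberg q of 0.01, and called windows within 100 bp were joined. These means include the reads of the peak itself, which lowers its fold, and neighbouring windows are not independent. Peaks were assigned to genes by their summit in library 1. Intervals are 95% exact and cover counting error only.

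The genes, related lists, tests and alternatives were chosen with earlier results of these data known. All AP-1 genes with reads are named, with any gene whose start is nearest to a peak and the 2 genes with the tallest peak of each related list. The TH2 marker genes are named in addition. GENCODE M21 and the RefSeq promoters were on the build of the files. Python 3.11.15, NumPy 2.4.6, SciPy 1.17.1 and Matplotlib 3.10.9 were used.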

Additional observations from a re-analysis of the deposited data

How the results depend on the processing

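The number of AP-1 genes with a shared peak stayed between 6 and 9 under every setting with the 20-kb flank, and was 7 with a 10-kb flank, 8 with a 50-kb flank and 3 with no flank, beside 47.4%, 73.7% and 30.5% of all genes. *Jun* and *Fosl1* were lost at a q of 1e-10, and *Jun* and *Fosb* when 5-fold over the local density was required. *Junb* was gained with 400-bp windows and with library 1 alone. The 26 shared peaks became 11 at a q of 1e-10, 8 at 5-fold, 16 with a 10-kb flank and 7 with no flank. The share of all genes with a peak fell as well, to 20.4% at a q of 1e-10 and 25.2% at 5-fold. Promoter peaks were at 1 gene, *Fos*, at a q of 1e-10 and at 5-fold, beside 2.87% and 2.76% of all genes. They were at 1 gene, *Jun*, with promoters of 1 kb either side. With promoters from 5 kb upstream to 1 kb downstream they were at 2 genes. The share of all genes was not taken for these other promoter lengths. Leaving out each library in turn gave 8 to 9 genes, 26 to 43 peaks and 3 to 6 promoter genes, the higher values being library 1 alone, where 84.3% of all genes had a peak in the window and 29.1% a promoter peak. GATA motifs fell from 21 summits to 13 within 50 bp (50%, beside 46.8% of all shared summits) and to 9 for AGATAA alone (34.6%, beside 40.8%, so that the AP-1 summits were then the lower), and AP-1 motifs from 5 summits to 2 within 50 bp (7.69%, beside 6.74%), and they rose to 7 for TGANTCA (26.9%, beside 16.8%). The count of 4 promoter genes over any transcript start was added after the data had been seen. No paired analysis was possible because both libraries belong to the same group. The lack of a shared peak does not show the lack of binding, and depth cannot be told apart from library and sequencing run.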
